A study of Mus musculus with 8 samples.

Results

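The epidermal differentiation transcription factors described here were 9 genes picked by symbol from RNA-seq of sorted mouse skin cells: Trp63, Klf4, Klf5, Grhl1, Grhl3, Ovol1, Zfp750, Cebpa and Prdm1. All 9 were among the 23861 genes listed for hair follicle stem cells (HFSCs), and 8 were among the 16231 genes listed for epidermal stem cells (EpdSCs), where Prdm1 had no row. The study asked what loss of the homeobox gene Msx2 does to these cells, and sequenced 8 bulk libraries, 2 for each genotype in each cell type. HFSCs were gated as CD34+, CD49f+ and Sca-1- and EpdSCs as CD34-, CD49f+ and Sca-1+, all from dorsal skin in telogen, the resting phase of the hair cycle. The Msx2-KO mice carried a germline allele, on both copies, with a neo selection cassette inserted upstream of exon 2, and the WT controls were C57BL/6J mice at the same hair cycle stage. No treatment was given to any group. WT mice were 2 months old in the HFSC set and 6 months old in the EpdSC set, and Msx2-KO mice were 6 months old in both. Age and genotype therefore cannot be told apart in HFSCs. Deposited library names also ran in separate series by genotype within each cell type, beginning with YC in WT HFSCs and with Ch in all other groups. What these series stand for is not given in the sources used here. Whatever they mark cannot be told apart from genotype in either cell type. The study names individual mice as replicates of its in vivo experiments in general, but no source used here says what the pairs of libraries were, so p-values measure the spread between libraries, which may be technical.

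The epidermis renews from a basal layer in which p63, encoded by Trp63, maintains the identity of stratified epithelium. As keratinocytes leave this layer they stop dividing and switch on, in turn, early suprabasal keratins and then the barrier proteins and lipids of the granular and cornified layers, under factors of the C/EBP, KLF, Grainyhead-like, OVOL and PRDM families. The hair follicle bulge, where HFSCs reside, does not normally run this programme, although several of the same factors act in the upper follicle and the sebaceous gland.

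Promoter sequence is shown for the 4 factors whose WT and Msx2-KO libraries did not overlap in either cell type and that had a RefSeq promoter entry. Trp63, Klf5, Ovol1 and Zfp750 had no entry, and Prdm1, which has no row in EpdSCs, is left out. Each line gives the 250 bases before the RefSeq transcription start on GRCm38.p6, 5′ to 3′ on the strand of the gene. The windows are chr4:55532476-55532725 on the minus strand for Klf4, chr7:35119043-35119292 on the plus strand for Cebpa, chr12:24572037-24572286 on the plus strand for the upstream of the 2 Grhl1 starts, and chr4:135573633-135573882 on the minus strand for Grhl3. Capitals mark matches, on either strand, to any of 7 motifs.
Klf4: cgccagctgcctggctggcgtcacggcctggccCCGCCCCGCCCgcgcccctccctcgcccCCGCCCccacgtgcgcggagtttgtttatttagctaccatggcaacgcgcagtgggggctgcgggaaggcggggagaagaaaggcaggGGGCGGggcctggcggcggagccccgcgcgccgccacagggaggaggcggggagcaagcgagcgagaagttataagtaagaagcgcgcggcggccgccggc
Cebpa: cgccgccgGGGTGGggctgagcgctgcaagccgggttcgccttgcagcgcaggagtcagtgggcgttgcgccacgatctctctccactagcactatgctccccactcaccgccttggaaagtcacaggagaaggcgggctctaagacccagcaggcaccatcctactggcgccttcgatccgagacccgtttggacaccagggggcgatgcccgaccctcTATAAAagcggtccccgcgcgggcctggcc
Grhl1: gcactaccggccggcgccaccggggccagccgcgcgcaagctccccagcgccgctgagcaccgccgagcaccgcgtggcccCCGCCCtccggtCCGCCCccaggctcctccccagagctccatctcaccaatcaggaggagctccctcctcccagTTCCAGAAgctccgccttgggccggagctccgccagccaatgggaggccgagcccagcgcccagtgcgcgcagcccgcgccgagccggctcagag
Grhl3: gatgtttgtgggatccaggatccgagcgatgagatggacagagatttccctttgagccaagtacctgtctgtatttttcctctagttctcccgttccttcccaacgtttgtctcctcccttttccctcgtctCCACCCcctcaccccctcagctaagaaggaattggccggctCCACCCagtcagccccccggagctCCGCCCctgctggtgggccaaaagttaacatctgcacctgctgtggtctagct

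Each motif was searched on both strands, and its share is over 32851 RefSeq promoter windows of the same length. The Klf4 window held 4 GC boxes (GGGCGG), of which 2 overlap by 1 base, where 32.7% of windows hold this motif, and its GC content was 74.0% against a median of 52.4%. The Grhl1 window, at 75.6% GC, held 2 GC boxes and 1 match to the letters of a C/EBP site (TTNCNNAA), present in 36.8% of windows. The Cebpa window, at 66.4% GC, held a TATA box (TATAAA) between 30 and 25 bases before the start, present in 12.4% of windows. It also held 1 match to the CACCC motif (CCACCC), present in 28.1%. The Grhl3 window, at 56.0% GC, held 2 CACCC matches and 1 GC box. The letters of an Msx-type homeodomain site (TAATTG), found in 7.17% of windows, were in none of the 4. Neither were those of an AP-1 site (TGANTCA), found in 6.75%, or of a Grainyhead site (AACCNGTT), found in 1.79%. The Prdm1 window, not printed, held 1 AP-1 match between 48 and 42 bases before the start. These matches describe the letters only.

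The libraries labelled Msx2-KO differed from WT in general measures too. HFSC totals ran from 3132974 to 11016659 estimated counts, and mitochondrial ribosomal RNA made up 8.94% and 36.3% of WT libraries but 49.4% and 53.2% of Msx2-KO libraries. The WT HFSC libraries detected 22447 and 19595 genes and the Msx2-KO libraries 11409 and 14251. In EpdSCs normalised totals ran from 14216483 to 24694442, with mitochondrial ribosomal RNA at 23.5% and 16.4% in WT against 0.073% and 6.18% in Msx2-KO. The Msx2-KO replicates were less alike than the WT replicates, with a Pearson correlation of log2 values across genes, which are not independent, of 0.581 against 0.929 in HFSCs and 0.844 against 0.952 in EpdSCs. Msx2 itself had 53 and 7 estimated counts in WT HFSCs and 40 and 18 in Msx2-KO, and deposited values of 58.5 and 85.4 in WT EpdSCs and 150.3 and 22.2 in Msx2-KO. The targeted gene was thus not lower in every library of its label, counts per gene do not separate its exons, and every direction below rests on the labels. Among defining markers, the HFSC list summed to 36906 and 34889 in WT HFSCs and 19099 and 20486 in Msx2-KO, carried by Krt15. Of its 8 members 1 was above and 7 below WT in both libraries (17.5% and 33.5% of all genes). Cd34, which was used in the gate, was at 2755 and 2448 in WT against 994 and 806 in Msx2-KO (log2 fold change -1.53, edgeR adjusted p = 0.143). Ly6a, which encodes Sca-1, had no row in the HFSC table, and Cd34 had none in the EpdSC table. Lhx2, a bulge factor, was low in EpdSCs, at deposited values of 6.37 to 37.9, and Lgr5, Tcf7l1 and Grem1 ran from 0 to 90.4. Other members of the HFSC list were higher there, with Sox9 at 412 to 786, Nfatc1 at 760 to 1667 and Krt15 at 79951 to 230109.

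In HFSCs most of these factors had more mRNA in the libraries labelled Msx2-KO than in WT. Grhl1, Grhl3, Ovol1, Zfp750, Cebpa and Prdm1 were higher in each Msx2-KO library than in each WT library, Klf4 was lower in each, and Trp63 and Klf5 overlapped. These 6 of 9 compare with 17.5% of the 14422 genes tested, and the 1 of 9 below with 33.5%. Their median log2 fold change, Msx2-KO over WT, was 2.04, where that of all genes tested was -0.14. No factor was called by the edgeR quasi-likelihood test at adjusted p under 0.05 (Benjamini-Hochberg) with more than 2-fold change, and neither was any other gene (0% of genes tested). With p under 0.05 before adjustment and the same fold limit, Grhl1, Zfp750 and Cebpa passed upward (5.02% of all genes) and Klf4 downward (12.2%). DESeq2 called these same 4 factors, where it called 2.38% of genes upward and 2.58% downward, and limma-trend called Grhl1 alone, where it called 1.1% upward. In bulk RNA, a change in the number of cells of a type and a change in RNA per cell cannot be told apart. Values below are TMM-normalised counts, that is, counts scaled to a common library size of 5610068.5.

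**Figure D1:**
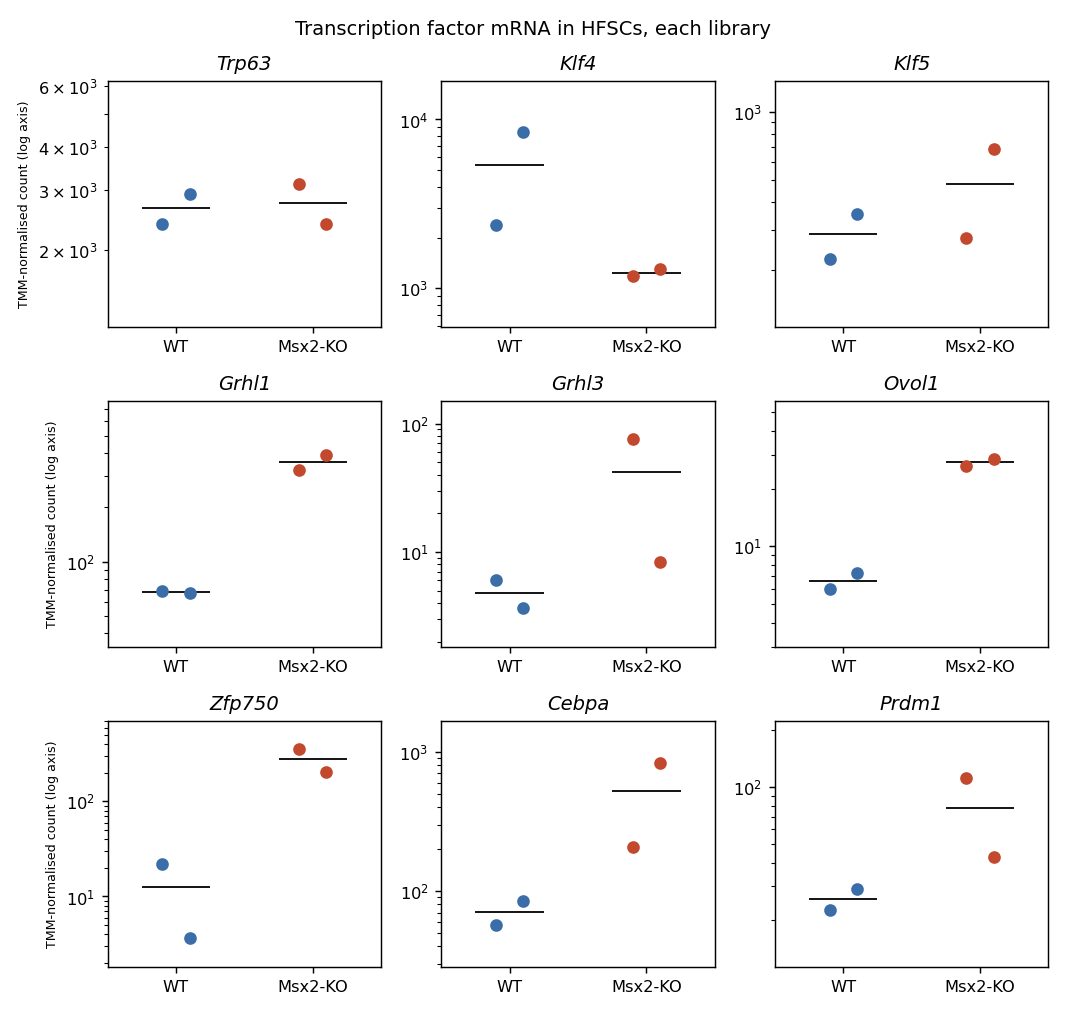
TMM-normalised counts of the 9 factors in HFSCs, 1 panel per gene with its own log axis. Points are single libraries (WT blue, Msx2-KO red, 2 each) and bars are means. Grhl1 stood at 68.9 and 67.1 in WT and at 322 and 389 in Msx2-KO, Klf4 at 2367 and 8444 against 1176 and 1304, and Trp63 overlapped between genotypes.

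Trp63 (chr16:25683763-25892102, plus strand), the regulator of basal identity, had normalised counts of 2386 and 2925 in WT HFSCs and 3108.5 and 2392 in Msx2-KO. The genotypes overlapped, and the spread within each was as wide as the gap between them. In edgeR its log2 fold change was 0.05 with a 95% interval from -0.72 to 0.82 (standard error 0.28, adjusted p = 0.974), and scaling by library totals turned it to -0.74. Klf5 (chr14:99298691-99315036, plus strand), a zinc-finger factor of proliferating epithelial cells, had 224 and 355.5 in WT against 276 and 682 in Msx2-KO. The first Msx2-KO library lay between the WT values and the second above both. Its log2 fold change of 0.73 (standard error 0.56, edgeR adjusted p = 0.656) became -0.07 without Msx2-KO replicate 2 and -0.09 with library totals.

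Cebpa (chr7:35119293-35121928, plus strand) encodes C/EBPα, which promotes cell cycle exit and early differentiation and is also made in sebocytes. Normalised counts of it were 56.9 and 85.2 in WT HFSCs and 207 and 837 in Msx2-KO. Both knockout libraries were higher than WT, but they differed 4.05-fold from each other. The mean was 71.1 ± 20.02 in WT and 522 ± 446 in Msx2-KO (SD, n = 2 each), a 7.34-fold difference and a log2 fold change of 2.88 (standard error 0.81, edgeR adjusted p = 0.168). Without Msx2-KO replicate 2, the library with more Cebpa, the log2 fold change was 1.57. Ovol1 (chr19:5549136-5560646, minus strand), a zinc-finger repressor that restrains growth as keratinocytes leave the basal layer, was scarce, with normalised counts of 5.99 and 7.25 in WT against 26.3 and 28.6 in Msx2-KO. The knockout libraries were close together and above WT. These values rest on 12 counts in WT and 67 in Msx2-KO, a ratio of 4.28 with an exact 95% counting interval from 2.30 to 8.70 that leaves out the spread between libraries. The fitted log2 fold change was 2.04 (standard error 1.11, edgeR adjusted p = 0.487). Exons of Ovol1 overlap the opposite-strand pseudogene Gm31166, listed at 8.88 and 3 estimated counts in WT HFSCs and at 0 in both Msx2-KO libraries. The use of strand in counting is not given in the sources used here, so reads of the pair cannot be told apart.

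Klf4 (chr4:55527143-55532466, minus strand), a zinc-finger factor required for the skin barrier and made mainly above the basal layer, went the other way. Its normalised counts were 2367 and 8444 in WT HFSCs and 1176 and 1304 in Msx2-KO. Each knockout library was under the lower WT library, and the WT libraries differed 3.57-fold between themselves. Means were 5406 ± 4297 in WT and 1240.1 ± 90.2 in Msx2-KO (SD, n = 2 each), with a log2 fold change of -2.12 (standard error 0.69, edgeR adjusted p = 0.224). Leaving out WT replicate 1 gave -2.79 and leaving out WT replicate 2 gave -1.02, so the size of the difference depended on which WT library was kept. Klf4 was the only one of the 9 factors with a negative log2 fold change in HFSCs.

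Zfp750 (chr11:121510978-121519333, minus strand), a zinc-finger target of p63 that promotes terminal differentiation, had the largest fitted difference of the 9. Normalised counts were 21.7 and 3.63 in WT HFSCs and 354 and 205 in Msx2-KO, so that the lower knockout library was well over the higher WT library. The estimated counts behind them were 29 and 2 in WT against 580 and 172 in Msx2-KO, a ratio of 18.6 with an exact 95% counting interval from 13.002 to 27.6. This gave a log2 fold change of 4.37 with a 95% interval from 1.68 to 7.05 (standard error 0.98, edgeR adjusted p = 0.143). Leaving out 1 library at a time moved it between 3.59 and 6.19, positive each time. The gene lies within Tbcd on the opposite strand without shared exons.

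The Grainyhead-like factors Grhl1 (chr12:24572283-24617391, plus strand), which acts on desmosomal cadherin genes and hair anchorage, and Grhl3 (chr4:135541888-135573630, minus strand), which acts in barrier formation and wound closure, were both higher in Msx2-KO HFSCs. Grhl1 had normalised counts of 68.9 and 67.1 in WT against 322 and 389 in Msx2-KO. Its replicates were close to each other and the genotypes far apart, at 68.0 ± 1.27 in WT and 356 ± 47.6 in Msx2-KO (SD, n = 2 each). Its log2 fold change was 2.38 with a 95% interval from 1.47 to 3.30 (standard error 0.34, unadjusted p = 0.0018 and adjusted p = 0.143 in edgeR), and it stayed between 2.24 and 2.49 as single libraries were left out. With library totals it was 1.51, with an unadjusted p = 0.0909 in edgeR. Grhl3 had 5.99 and 3.63 in WT against 75.2 and 8.34 in Msx2-KO. Most of the difference came from Msx2-KO replicate 1, whose value was 9.02-fold that of the other. With 10 counts in WT and 130 in Msx2-KO the ratio was 9.98 (exact 95% counting interval 5.25 to 21.3), and 123 of the 130 counts were in that library. Grhl3 had a log2 fold change of 3.07 with a 95% interval from -1.40 to 7.55 (standard error 1.64, edgeR adjusted p = 0.472). Grhl3 did not pass the filter on low counts once this library was left out.

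Prdm1 (chr10:44437177-44528501, minus strand), a repressor of the granular layer and of sebaceous gland progenitors, had normalised counts of 22.5 and 29.0 in WT HFSCs and 112 and 42.9 in Msx2-KO. The knockout libraries were above WT, the second by little. This made a log2 fold change of 1.59 (standard error 0.99, edgeR adjusted p = 0.558), and without Msx2-KO replicate 1 it was 0.73. How many factors were called turned on which library was kept. Without Msx2-KO replicate 2 edgeR called 6 of 9, all upward, but also 59.1% of all genes. Without Msx2-KO replicate 1 it called 4 of the 8 tested, all upward, among 36.6% of all genes. Without WT replicate 1 the calls were Zfp750 upward and Klf4 downward, and without WT replicate 2 Cebpa upward (1.04% and 0.797% of genes). In each of these fits the lone library was taken to vary like the other group.

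Markers of other cell states were measured beside these values. The edgeR test called none of them. Before adjustment markers of sebocytes (6), cycling cells (4) and EpdSCs (1) passed upward, where 5.02% of all genes did. Markers of melanocytes (3), HFSCs (2) and immune cells (1) passed downward, where 12.2% did. DESeq2 called markers of sebocytes (4), cycling cells (2) and EpdSCs (1) upward (2.38% of genes). It called markers of HFSCs (2) and melanocytes (1) downward (2.58%). All 6 tested markers of sebocytes, of a list of 8, were higher in each Msx2-KO HFSC library, where 17.5% of all genes were. The summed level of the list was 398 and 495 in WT against 6756 and 5690 in Msx2-KO. Scd3 and Awat1 did not pass the filter, and Cidea was at 0 in both WT libraries. All 5 cycling markers were tested and 4 were higher in each Msx2-KO library (17.5% of all genes), with sums of 237 and 285 in WT against 2906 and 2084 in Msx2-KO. Melanocyte markers (4 of 6 tested, 3 lower in each Msx2-KO library, where 33.5% of all genes were) had sums of 1090 and 1219 in WT against 512 and 276 in Msx2-KO. Fibroblast markers (2 of 6 tested) were at 268 and 359 against 152 and 69.1, and endothelial markers (2 of 5 tested) at 115 and 32.6 against 34.2 and 22.6. Immune markers (2 of 8 tested) were at 57.7 and 27.2 against 113 and 58.3. Of the 2 tested, Cd74 was at 26.2 and 9.07 in WT against 113 and 58.3, and Ptprc at 17.2 and 16.3 against 0 and 0. All of these sums take in listed genes that did not pass the filter. The EpdSC list (5 of 6 tested) was at 19192 and 20076 in WT HFSCs and 15005 and 14145 in Msx2-KO. Krt5 carried these sums and was below WT. Of the tested members 2 were above and 3 below WT in both libraries (17.5% and 33.5% of all genes). Ly6d went from 13.5 and 5.44 in WT to 294 and 504 in Msx2-KO (log2 fold change 5.30), and Krt14 was also above WT. The part of these cells, of mitochondrial RNA or of depth in the factors' values was not tested.

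In EpdSCs the 8 factors split. Ovol1 and Cebpa were higher in each Msx2-KO library than in each WT library, Klf4, Grhl1 and Grhl3 were lower in each, and Trp63, Klf5 and Zfp750 overlapped. These shares, 2 and 3 of 8, compare with 27.8% and 44.5% of the 16231 genes tested. Their median log2 fold change was -0.04, against -0.64 for all genes. None of the 8 was called by limma under the same limits (Benjamini-Hochberg adjusted p under 0.05, more than 2-fold), where 1.57% of genes were called upward and 7.78% downward. With p under 0.05 before adjustment and the same fold limit, Ovol1 passed upward (12.2% of all genes) and Grhl1 downward (23.1%). The edgeR test on counts recovered from the deposited values called no gene of the table. Values below are the deposited normalised counts, and log2 fold changes are on the log2(value + 1) scale.

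**Figure D2:**
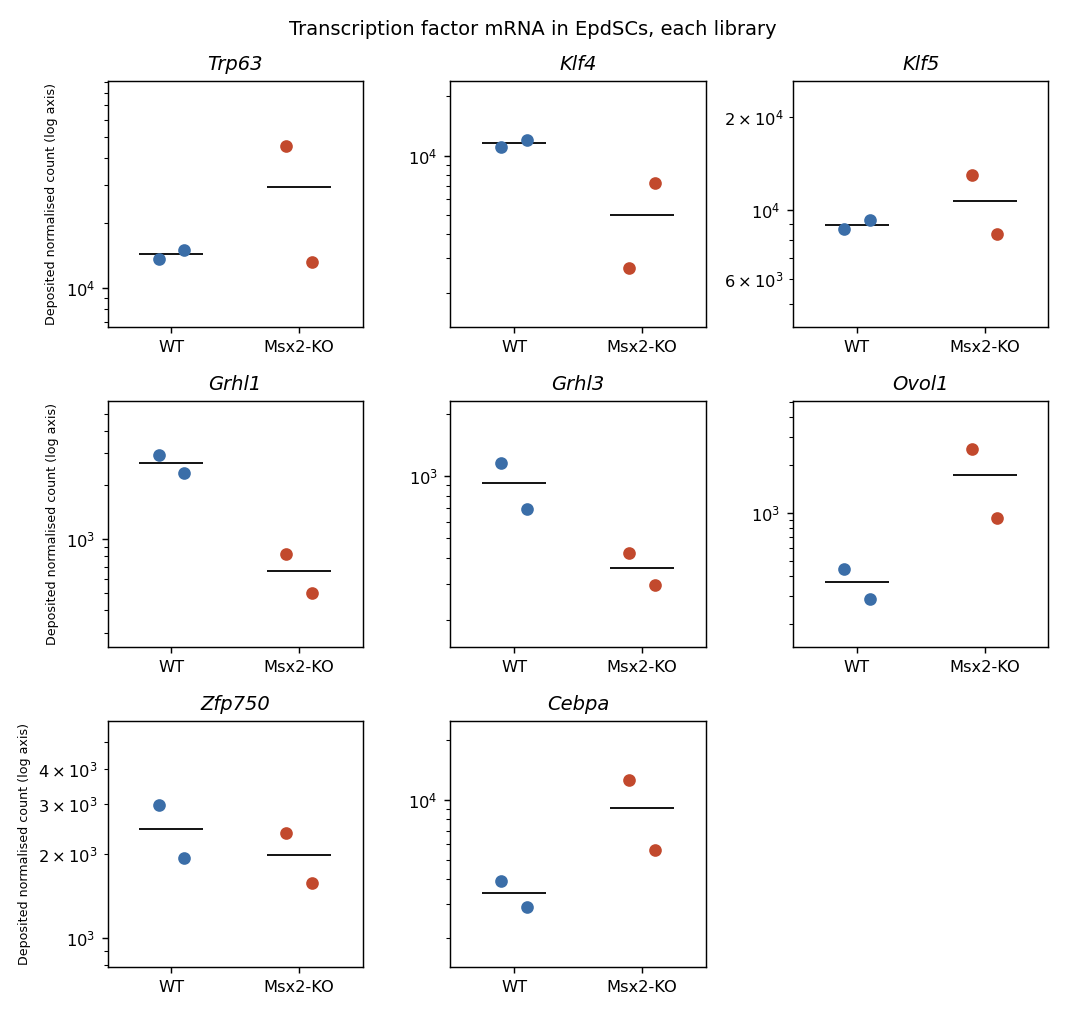
Deposited normalised counts of 8 factors in EpdSCs, 1 panel per gene with its own log axis. Points are single libraries (WT blue, Msx2-KO red, 2 each) and bars are means. Grhl1 stood at 2952 and 2328 in WT and at 823 and 498 in Msx2-KO, and Ovol1 at 444 and 285 against 2533 and 923.

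Trp63 had deposited values of 13674 and 15069.5 in WT EpdSCs and 45362 and 13177.5 in Msx2-KO. The first knockout library was far above the other 3 and the second just under WT. The log2 fold change of 0.77 (standard error 0.79, limma adjusted p = 0.505) became -0.12 without Msx2-KO replicate 1 and 1.66, with a call, without replicate 2. Klf5 had 8716 and 9272 in WT against 13033 and 8396 in Msx2-KO. Its genotypes overlapped, and the log2 fold change was 0.22 with a 95% interval from -1.24 to 1.67 (standard error 0.51, limma adjusted p = 0.769), turning to -0.05 with library totals, -0.31 without mitochondrial and ribosomal RNA genes and -0.10 without Msx2-KO replicate 1.

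Cebpa had deposited values of 3905 and 2871 in WT EpdSCs and 12598 and 5576 in Msx2-KO. Each knockout library exceeded the higher WT library, and the mean difference was 2.68-fold. This was a log2 fold change of 1.32 (standard error 0.65, limma adjusted p = 0.220). It was 0.74 without Msx2-KO replicate 1, 0.79 without mitochondrial and ribosomal RNA genes, and 1.91, with a call, without replicate 2. Its exons overlap the antisense gene Gm45091, which was listed at 0 to 25.6 in these libraries. Ovol1 had 444 and 285 in WT against 2533 and 923 in Msx2-KO. Again both knockout libraries lay above WT, the first at 6.94 times and the second at 2.53 times the WT mean. The log2 fold change was 2.10 with a 95% interval from 0.02 to 4.18 (standard error 0.74, limma adjusted p = 0.140). It was 1.37 without Msx2-KO replicate 1, and 2.83, with a call, without replicate 2.

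Klf4 had deposited values of 11065 and 11987 in WT EpdSCs and 2672 and 7276 in Msx2-KO. Both knockout libraries were under WT, the first at 4.31-fold and the second at 1.58-fold below the WT mean. Its log2 fold change was -1.39 (standard error 0.70, limma adjusted p = 0.229), and it was -0.66 without Msx2-KO replicate 1 and -2.11, with a call, without replicate 2. Zfp750 had 2979 and 1926 in WT against 2375 and 1576 in Msx2-KO, overlapping values with a log2 fold change of -0.31 and a 95% interval from -1.88 to 1.26 (standard error 0.55, limma adjusted p = 0.701). Without WT replicate 1 its log2 fold change was 0.01, and without mitochondrial and ribosomal RNA genes it was -0.84.

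Both Grainyhead-like factors were lower in Msx2-KO EpdSCs. Grhl1 had deposited values of 2952 and 2328 in WT against 823 and 498 in Msx2-KO. The higher knockout library was under the lower WT library, and the means, 2640 ± 441 and 660 ± 229.5 (SD, n = 2 each), differed 3.997-fold. The log2 fold change was -2.03 with a 95% interval from -3.57 to -0.50 (standard error 0.54, unadjusted p = 0.0218 and adjusted p = 0.0960 in limma), and it was called with either Msx2-KO library left out, at -2.39 and -1.67. Grhl3 had 1159 and 690 in WT against 421 and 295 in Msx2-KO. Its groups did not overlap either, with a log2 fold change of -1.34 (standard error 0.56, limma adjusted p = 0.181). Here too the calls depended on the libraries. Without Msx2-KO replicate 2 limma called 5 of 8 factors (Trp63, Ovol1 and Cebpa upward, Klf4 and Grhl1 downward) among 63.9% of all genes. Without Msx2-KO replicate 1 it called Grhl1 alone, among 37.6% of all genes, and without either WT library it called no gene.

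Beside these values, all 6 markers of EpdSCs were higher in each Msx2-KO EpdSC library, where 27.8% of all genes were. Their sums were 184217 and 215604 in WT against 1022720 and 508366 in Msx2-KO. Immune markers were at 682 and 43.6 in WT against 22.9 and 6.74 in Msx2-KO, and 6 of 8 had a row. Of the sebocyte markers 3 of 8 had a row, with sums of 6730 and 7233 in WT against 25044 and 10837 in Msx2-KO, carried by Scd1. The members went apart, with 1 above and 2 below WT in both libraries (27.8% and 44.5% of all genes) and a median of -1.34. Scd1 was above WT (log2 fold change 1.94), and Fasn (-1.34) and Plin2 (-2.72) were below. No fibroblast marker had a row, 1 of 6 melanocyte markers did (24.2 to 238) and 2 of 5 endothelial markers did (20.9 to 36.8). The HFSC list, 7 of 8 with a row, was at 81279 and 98012 in WT EpdSCs and 231768 and 179980 in Msx2-KO, carried by Krt15. Cycling markers summed to 3459 and 2797 in WT against 4740 and 2168 in Msx2-KO, but their members went apart. Of 5, 3 were above and 1 below WT in both libraries (27.8% and 44.5% of all genes). Cdk1, a kinase of mitosis, rose from 53.1 and 56.9 to 1455 and 655 (log2 fold change 4.13, limma adjusted p = 0.0416), while the proliferation marker Mki67 was at 2517 and 2055 against 7.64 and 294 (-5.49, limma adjusted p = 0.138). The part of these differences in the factors' values was not tested.

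Set side by side, the log2 fold changes of the factors were of like sign in both cell types for Trp63, Klf5, Ovol1, Cebpa and Klf4 and of unlike sign for Grhl1, Grhl3 and Zfp750. Grhl1 was at 2.38 in HFSCs and -2.03 in EpdSCs, and Grhl3 at 3.07 and -1.34, with no overlap between genotypes in either cell type. Cebpa and Ovol1 were above WT in both, and Klf4 below WT in both. Of all genes tested, 17.5% lay above and 33.5% below WT in HFSCs, and 27.8% and 44.5% in EpdSCs. The share of genes with each pairing of directions was not computed. The WT mice of the HFSC set were younger, the tables were made separately, and no test was run across them.

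**Figure D3:**
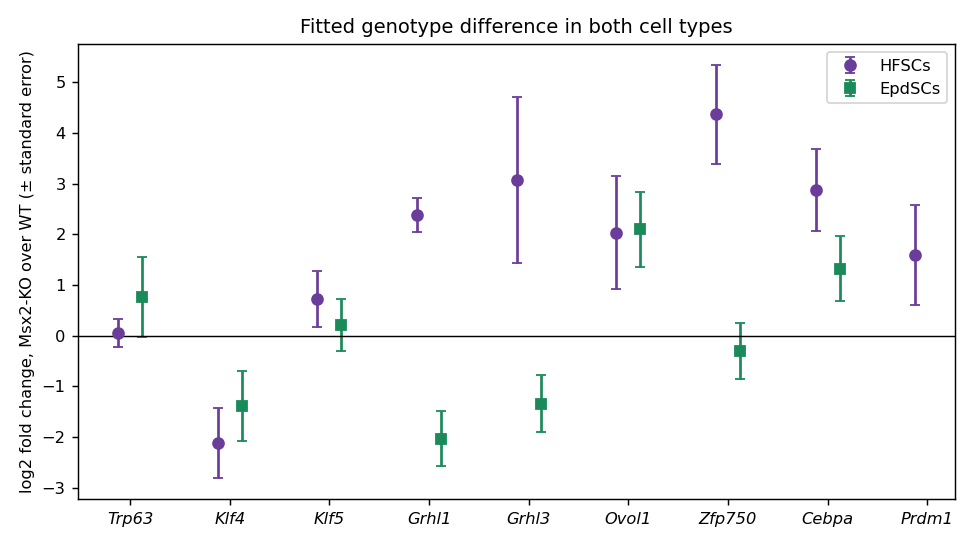
Log2 fold change, Msx2-KO over WT, of each factor in HFSCs (purple circles, edgeR) and EpdSCs (green squares, limma), with bars of 1 standard error and a line at 0. Grhl1 and Grhl3 stand above 0 in HFSCs and below 0 in EpdSCs, Klf4 stands below 0 in both, and Prdm1 has an HFSC value only.

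Because the units differ, levels were compared between cell types only by rank, as the percentile of a gene among the 12024 protein-coding genes listed in both tables. Trp63 was in the top percentile of every library, at 99.2 to 99.6. Klf4 was at 99.3 and 99.8 in WT HFSCs, 97.9 and 98.5 in Msx2-KO HFSCs, 99.4 and 99.5 in WT EpdSCs and 87.1 and 98.1 in Msx2-KO EpdSCs. Zfp750 and Cebpa were low or middling in WT HFSCs and high in WT EpdSCs. Zfp750 went from 21.4 and 5.6 in WT HFSCs to 86.7 and 77.1 in Msx2-KO HFSCs, beside 95.9 and 92.0 in WT EpdSCs, and Cebpa from 43.4 and 54.1 to 75.6 and 96.9, beside 97.3 and 95.6. Grhl1 ranked at 48.6 and 48.0 in WT HFSCs, 84.9 and 89.9 in Msx2-KO HFSCs, 95.9 and 93.8 in WT EpdSCs and 69.5 and 64.4 in Msx2-KO EpdSCs. For Grhl1 the ranks of the cell types were thus far apart in WT and changed places in Msx2-KO. Ovol1 was at 5.5 and 9.8 in WT HFSCs and 59.8 and 47.7 in WT EpdSCs, and Grhl3 at 5.5 and 5.6 against 84.2 and 72.6.

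**Figure D4:**
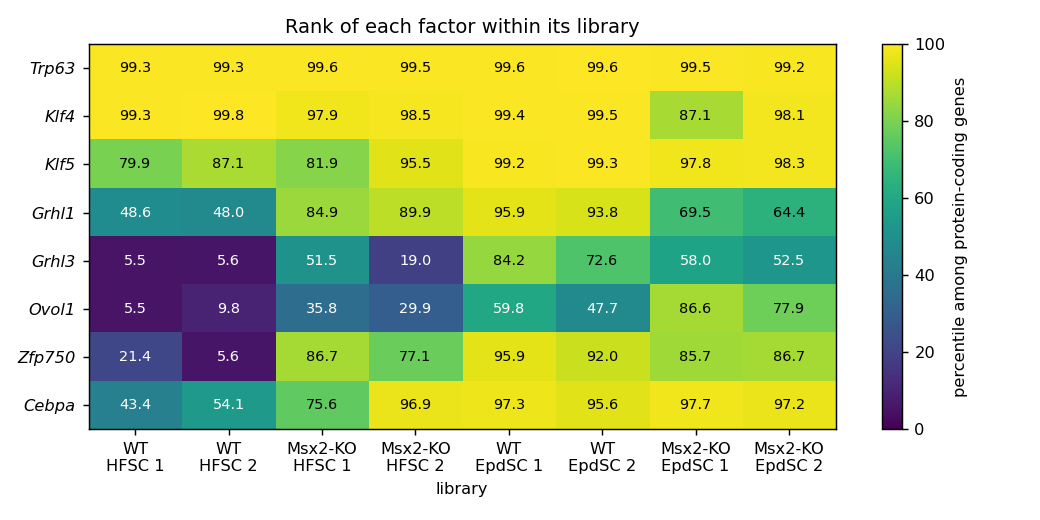
Percentile of 8 factors (rows) among 12024 protein-coding genes in each of the 8 libraries (columns), from dark (low) to yellow (high). Trp63 stays at 99.2 or more throughout, Grhl1 is at 48.6 and 48.0 in WT HFSCs and at 84.9 and 89.9 in Msx2-KO HFSCs, and Prdm1 is left out because the EpdSC table has no row for it.

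Within a group, levels were ordered per kilobase of exon. In WT HFSCs Klf4 led at 1773 normalised counts per kilobase, ahead of Trp63 at 316, Klf5 at 55.7, Cebpa at 27.0 and Grhl1 at 12.3, and the ranges of these neighbours did not overlap. Prdm1 (4.61), Zfp750 (3.92), Ovol1 (1.90) and Grhl3 (1.72) followed, each overlapping its neighbour. In Msx2-KO HFSCs Klf4 still led, at 407 per kilobase, apart from Trp63 at 328. From Trp63 on, Cebpa (198), Klf5 (92.1), Zfp750 (86.5) and Grhl1 (64.2) overlapped from 1 neighbour to the next, Trp63 and Cebpa included. Grhl3 (15.0), Prdm1 (13.9) and Ovol1 (7.86) were last and also overlapped. In WT EpdSCs Klf4 was at 3780 deposited units per kilobase, Klf5 at 1729 and Trp63 at 1713 overlapped, and Cebpa (1285), Zfp750 (759), Grhl1 (477), Grhl3 (332) and Ovol1 (105) were apart. In Msx2-KO EpdSCs the first 4, Trp63 (3488), Cebpa (3447), Klf5 (2060) and Klf4 (1631), overlapped neighbour by neighbour, Zfp750 (611) overlapped Ovol1 (495), and Grhl3 (128) and Grhl1 (119) came last.

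Other regulators of epidermal differentiation stood on both sides of WT in HFSCs. Of 24 such genes 22 were tested there, the median was 0.02, and 4 were above and 7 below WT in both libraries (17.5% and 33.5% of all genes). None was called by edgeR, DESeq2 or limma-trend. Before adjustment 1 passed both limits upward and 0 downward, where 5.02% and 12.2% of all genes did. The median lay between -0.83 (library totals) and 0.43 (without Msx2-KO replicate 1) over the alternatives, and was -0.50 with the replicate block. Without Msx2-KO replicate 2 the median, over 21 genes tested, was -0.82. Ehf, an ETS factor, had normalised counts of 17.2 and 3.63 in WT against 25.1 and 169 in Msx2-KO (log2 fold change 3.16). Hes1, a Notch target, was at 29.2 and 39.9 against 148 and 124 (1.98), and Tfap2a, an AP-2 factor of epidermis, at 477 and 452 against 899 and 842 (0.91). On the lower side were Id1 (-2.25), Maf (-0.83) and Fosl2 (-0.79). None of the 6 passed the test, with edgeR adjusted p from 0.143 to 0.735. In EpdSCs all 24 were tested with a median of 0.55, 12 above and 4 below WT (27.8% and 44.5% of all genes), and none called by limma. Before adjustment 6 passed upward and 1 downward (12.2% and 23.1%). The median was 0.02 without mitochondrial and ribosomal RNA genes and 0.28 with library totals. It was 0.21 without Msx2-KO replicate 1 and 1.06 without replicate 2. A pseudocount of 10 gave 2 calls upward and 1 downward, among 1973 genes called. Id1 was at 203 and 249 in WT EpdSCs and 2353 and 1324 in Msx2-KO (log2 fold change 2.97), Rbpj, the Notch effector, at 2.76, Tfap2c at 2.50, and Smarca4, a chromatin remodeler, at -3.75, with limma adjusted p from 0.0588 to 0.107. Cebpb, the partner of Cebpa, was at 617 and 474 against 401 and 148 (-1.14), and Fosl2 at -0.38.

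Genes of the suprabasal layers, among them targets of these factors, had median log2 fold changes of opposite sign in the cell types. In HFSCs 19 of 26 were tested, with a median log2 fold change of 2.87, and 10 were above and 4 below WT (17.5% and 33.5% of all genes). The median was 0.61 without Msx2-KO replicate 2, 1.05 for the 11 genes with at least 10 counts in every library, 1.63 with limma-trend, 1.75 with library totals and 1.77 with the replicate block, which called 4 upward. None was called by edgeR, and 8 passed upward and 1 downward before adjustment (5.02% and 12.2% of all genes). DESeq2 called 7 upward and 1 downward (2.38% and 2.58%). Krt1, an early suprabasal keratin, had 115 and 45.3 normalised counts in WT HFSCs and 1374 and 5324 in Msx2-KO (log2 fold change 5.36). Its partner keratin Krt10 was at 195 and 105 against 2264 and 9119 (5.23), and Flg, the filaggrin gene of the granular layer, at 9.74 and 1.81 against 86.2 and 231 (4.66). Spink5 (-0.96), Dsp (-0.84) and Evpl (-0.15) were lower, and edgeR adjusted p for the 6 ran from 0.143 to 0.856. Without Msx2-KO replicate 1 the median of the list, over 20 genes tested, was 3.53.

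In EpdSCs 25 suprabasal genes were tested, with a median log2 fold change of -3.06, and 2 were above and 18 below WT in both libraries, where 27.8% and 44.5% of all genes were. Limma called 0 upward and 6 downward, where 7.78% of all genes were called downward. Ivl, the involucrin gene of the cornified envelope, fell from deposited values of 433 and 232 in WT to 2.55 and 9.44 in Msx2-KO (log2 fold change -5.71, limma adjusted p = 0.0368). Ppl, for periplakin, fell from 26692 and 27059 to 344 and 1112 (-5.44, limma adjusted p = 0.0374). Dsc1, a desmosomal cadherin, Dsp, for desmoplakin, the lipid transporter gene Abca12 and Sbsn also fell, with log2 fold changes of -5.29, -4.22, -3.93 and -3.41 and limma adjusted p from 0.0268 to 0.0388. None of the 6 was called with either WT library left out or by edgeR on recovered counts. The median of the 25 suprabasal genes was -2.70 without Msx2-KO replicate 1, where that of all genes was -0.40. It was -3.002 without replicate 2, where that of all genes was -0.84.

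Genes of the basal layer that are known p63 targets were mixed. All 14 were tested in HFSCs, with a median of -0.45, 3 above and 9 below WT (17.5% and 33.5% of all genes) and none called by edgeR. The median was -0.84 without Msx2-KO replicate 1, -0.43 without replicate 2 and -1.26 with library totals. Before adjustment 0 passed upward and 3 downward (5.02% and 12.2% of all genes), and DESeq2 called 2 downward (2.58%). The hemidesmosome genes Itgb4 (3097 and 3272 normalised counts in WT, 1261 and 1360 in Msx2-KO, log2 fold change -1.28) and Dst (-1.58) and the integrin gene Itga3 (-1.86) were lower, and Fras1 (1.63), Fermt1 (0.29) and Krt14 (0.29) higher, with edgeR adjusted p from 0.143 to 0.744. In EpdSCs the 14 had a median of 0.60, 6 above and 5 below WT (27.8% and 44.5% of all genes), none called by limma, and 3 passing upward and 4 downward without adjustment (12.2% and 23.1%). The median turned to -0.07 without WT replicate 1, and was 0.07 without mitochondrial and ribosomal RNA genes, 0.33 with library totals and 0.36 with a pseudocount of 10, which called 1 upward. Without Msx2-KO replicate 1 the median was 0.41 and without replicate 2 it was 0.15. Perp, a desmosomal gene, was at 40224 and 34019 in WT EpdSCs and 269508 and 166709 in Msx2-KO (2.52) and the basal keratin Krt14 at 2.08. Lamb3 (-6.15), Itgb4 (-4.30) and Dst (-2.46) were lower, and limma adjusted p for these 5 ran from 0.0681 to 0.218. Lamb3 was at 3304 and 5219 in WT against 2.55 and 969 in Msx2-KO (standard error 2.98). The size of its fall thus rested largely on Msx2-KO replicate 1.

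**Figure D5:**
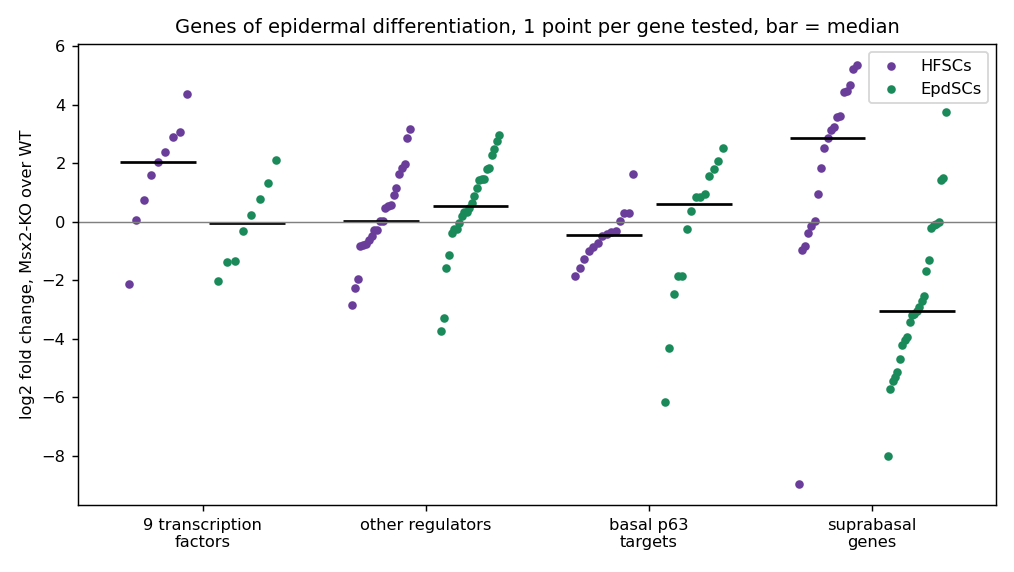
Log2 fold change, Msx2-KO over WT, of every tested gene of the 9 factors, other regulators, basal p63 targets and suprabasal genes, in HFSCs (purple) and EpdSCs (green), with a bar at each median. The median of the factors is 2.04 in HFSCs and -0.04 in EpdSCs, and that of the suprabasal genes 2.87 (0.61 without Msx2-KO replicate 2) and -3.06.

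The genes whose profiles were closest to each factor were found over all 8 libraries, as the smallest root mean square difference between log2 profiles centred within each table, among 7762 genes tested with a mean of at least 50 in both. For Trp63 these were Tm9sf2 (0.106) and Slc35a3 (0.147), for Klf5 Il1r1 (0.154) and Hjurp (0.167), and for Grhl1 Hint1 (0.251) and Chd3 (0.279). Cebpa was closest to Stmn1 (0.266) and Lratd1 (0.313), Klf4 to Gclc (0.345) and Sav1 (0.431), and Zfp750 to Klk7 (0.443), a protease of the cornified layer, and Spag5 (0.503). Grhl3, Ovol1 and Prdm1 were below the minimum level in HFSCs or absent in EpdSCs and were not compared. With so many genes and only 8 libraries, such likeness is a description.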

How the data were processed

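RNA was measured in 8 libraries of FACS-sorted dorsal skin cells, 2 per genotype in HFSCs and in EpdSCs, grouped by their labels. Libraries were prepared by the authors with a stranded total RNA kit, and reads were aligned to GRCm38/mm10 with STAR 2.7.3a in Partek Flow and annotated with GENCODE genes. The authors deposited HFSC values as estimated counts per gene without normalization, and 69.4% to 87.4% of a library's values above 0 and under 1000 were whole within 0.001 counts. The EpdSC values were deposited as a normalized signal, that is, each library's counts divided by its own factor. The rule by which low genes were dropped from that table is not given in the sources used here. A single count was worth 0.674 to 1.27 of these units, and 66.5% to 83.0% of values under 1000 counts were whole multiples of it within 0.02 counts. Totals per library, 3132974 to 11016659 counts in HFSCs, set the precision. Counting intervals are exact, at 95%, and cover counting error only. The authors' own comparison tables, with p-values and fold changes, were not used. The number of columns with values per library that could not be mapped was 0.

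HFSC counts were rounded and tested with edgeR 4.0.16 (TMM, filterByExpr, quasi-likelihood), and EpdSC values with limma 3.58.1 on log2(value + 1), in R 4.3.3. Calls required an adjusted p under 0.05 (Benjamini-Hochberg, over all genes tested) and more than 2-fold change. Gene symbols are those of the tables, and exon lengths came from GENCODE release M21. Promoter windows are RefSeq sequences on GRCm38.p6. The 9 factors and all gene and marker lists were chosen with earlier results of these data known. Named genes were all 9 factors and, from each list, called genes or otherwise up to 3 with the largest rise and 3 with the largest fall among genes whose groups did not overlap and whose mean was 50 or more. A gene that this rule named in EpdSCs is not reported here. Cdk1, Mki67, Scd1, Scd3, Awat1, Cidea, Fasn, Plin2, Ptprc and Cd74 are markers named outside that rule, once their values were known. So are Krt15, Lhx2, Sox9, Nfatc1, Lgr5, Tcf7l1, Grem1, Krt5, Ly6a, Ly6d and Cd34. The alternatives were DESeq2 1.42.0, limma-trend with a prior count of 3, RLE factors, library totals, pseudocounts of 0.1 and 10, other filters on low values, leaving out mitochondrial and ribosomal RNA genes, TMM on EpdSC values, edgeR on EpdSC counts recovered from the value of a single count, a replicate block, and each library left out. Figures were drawn with matplotlib 3.10.9 in Python 3.11.15.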

Additional observations from a re-analysis of the deposited data

Results flagged for a closer look

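Grhl1 and Grhl3 differed between genotypes in opposite directions in the 2 cell types, with every Msx2-KO library on one side of every WT library in each. Of all genes tested, 17.5% lay above WT in this way in HFSCs and 44.5% below WT in EpdSCs. The share of genes that did both was not computed. The log2 fold change of Grhl1, Msx2-KO over WT, was 2.38 in HFSCs and -2.03 in EpdSCs. That of Grhl3 was 3.07 in HFSCs, where 1 Msx2-KO library carried most of the counts, and -1.34 in EpdSCs. The difference between the cell types was not tested, since the tables were made separately and the WT HFSC mice were younger than the WT EpdSC mice.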

How the results depend on the processing

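In HFSCs the 0 factors called by edgeR became 4 with DESeq2 (674 of all genes called), 1 with limma-trend (1407) and 1 to 6 with single libraries left out (132 to 9272). With the replicate number as a block, 2 factors were called, Zfp750 and Cebpa, among 231 genes, where the fit without a block called 0 genes. The numbers do not pair libraries by any label, and the correlation of the WT and Msx2-KO differences between replicates 1 and 2 was -0.05 in HFSCs and -0.02 in EpdSCs. In EpdSCs the block left the factors' calls at 0, with 1271 genes called in place of 1518, edgeR on recovered counts called 0 genes, and 0 to 5 factors were called with single libraries left out (0 to 10376 genes). The median log2 fold change of the factors in HFSCs, 2.04, was 1.69 with limma-trend, 1.22 with library totals, 1.25 with at least 10 counts in every library (6 factors left) and 1.66 to 2.09 with single libraries left out. In EpdSCs the median, -0.04, was -0.31 with library totals, -0.57 without mitochondrial and ribosomal RNA genes and -0.36 to 0.26 with single libraries left out. Library totals also moved the median of all genes, from -0.14 to -1.002 in HFSCs and from -0.64 to -0.88 in EpdSCs. Directions turned for Trp63 in HFSCs (-0.74 with library totals, -0.18 to 0.22 with single libraries left out), Klf5 in HFSCs (-0.093 with library totals, -0.066 to 1.22 with single libraries left out), Klf5 in EpdSCs (-0.050 with library totals, -0.31 without mitochondrial and ribosomal RNA genes, -0.099 to 0.54 with single libraries left out), Trp63 in EpdSCs (-0.12 to 1.66) and Zfp750 in EpdSCs (-0.62 to 0.0064), the last 2 with single libraries left out. The other factors kept their direction under every alternative run, although library totals lowered Ovol1 to 1.22 and Prdm1 to 0.85 in HFSCs and limma-trend lowered Grhl3 there to 1.98. Trp63 in EpdSCs was 0.24 without mitochondrial and ribosomal RNA genes. Fits that leave out a library hold fewer samples, and the cause of the other changes was not tested. Depth limits Grhl3, Ovol1 and Zfp750 in WT HFSCs, with 10, 12 and 31 counts.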
